A study of Mus musculus with 4 samples.

Results

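Transcription factors of the epithelial-mesenchymal transition (EMT) and 3 cadherins were examined in clones of Deaf-1-null mouse mammary epithelial cells. The members were 10 genes: the repressors Snai1, Snai2, Zeb1 and Zeb2, the further transcription factors Twist1, Twist2 and Prrx1, and the adhesion genes Cdh1, Cdh2 and Cdh11. They were taken by symbol, and every probe set annotated with exactly 1 of these symbols was kept, which gave 25 of 45037 probe sets. All 18193 genes with a probe set of their own were available for comparison. For each gene the probe set with the highest mean leads.

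The primary cells were taken from mammary glands of Deaf-1-/- females aged 8 weeks and had been immortalised with retroviral E6/E7 of human papilloma virus. The study's results speak of a single mouse and its methods of mice. Clones E1 and C1 each received a Deaf-1 retrovirus or an empty one (control), were selected in puromycin for 48 hours, and gave 1 array per clone and retrovirus. By the study's account every sample thus lacked endogenous Deaf-1 and carried E6/E7, and the Deaf-1 group (n = 2) and the control group (n = 2) held the same clones. Expression is given as RMA values, the authors' log2 measure of array brightness. Such values can be compared between arrays for 1 probe set, but not between probe sets. Olfactory receptors, which these cells should not express, had 44 probe sets, and the 95th percentile of their means (3.83) served as the background level. On each array 49.2% to 50.8% of probe sets exceeded it. The Deaf1 probe set read 6.25 with Deaf-1 and 4.91 with the control retrovirus in clone E1, and 6.73 with Deaf-1 and 5.01 with the control retrovirus in clone C1 (log2 fold change 1.53, standard error 0.21). The control arrays of these null cells thus also lay above the background level. Arrays of the same clone correlated across probe sets at 0.992 and 0.994, and arrays of different clones at 0.976 to 0.983.

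In an EMT, epithelial cells loosen their junctions and take on the shape and matrix production of mesenchymal cells. Snail and Zeb proteins are zinc finger factors that bind E-box DNA and repress Cdh1, which encodes E-cadherin, the adhesion molecule of epithelial junctions. Twist proteins are basic helix-loop-helix factors and Prrx1 is a homeodomain factor of mesenchyme, and both can drive the same programme. N-cadherin (Cdh2) and cadherin-11 (Cdh11) are the cadherins of mesenchymal cells, and their gain at the expense of E-cadherin is known as the cadherin switch. In the mammary gland E-cadherin marks luminal cells, while Snai2 is known from the basal layer.

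Cdh1 RNA was not detected above background on any array. Its only probe set (1448261_at) read 2.42 with Deaf-1 and 2.34 with the control retrovirus in clone E1, and 2.28 with Deaf-1 and 2.22 with the control retrovirus in clone C1. All 4 values lay below the background level, so that absent RNA and a probe set that does not respond cannot be told apart. Of the 10 leading probe sets the other 9 were above background on all 4 arrays. Of all genes, 64.5% had a leading probe set with a mean above it. Over all 25 probe sets of the members, 19 exceeded background on every array and 6 on none, which were 2 of Zeb1, 2 of Zeb2, 1 of Prrx1 and that of Cdh1.

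**Figure D1:**
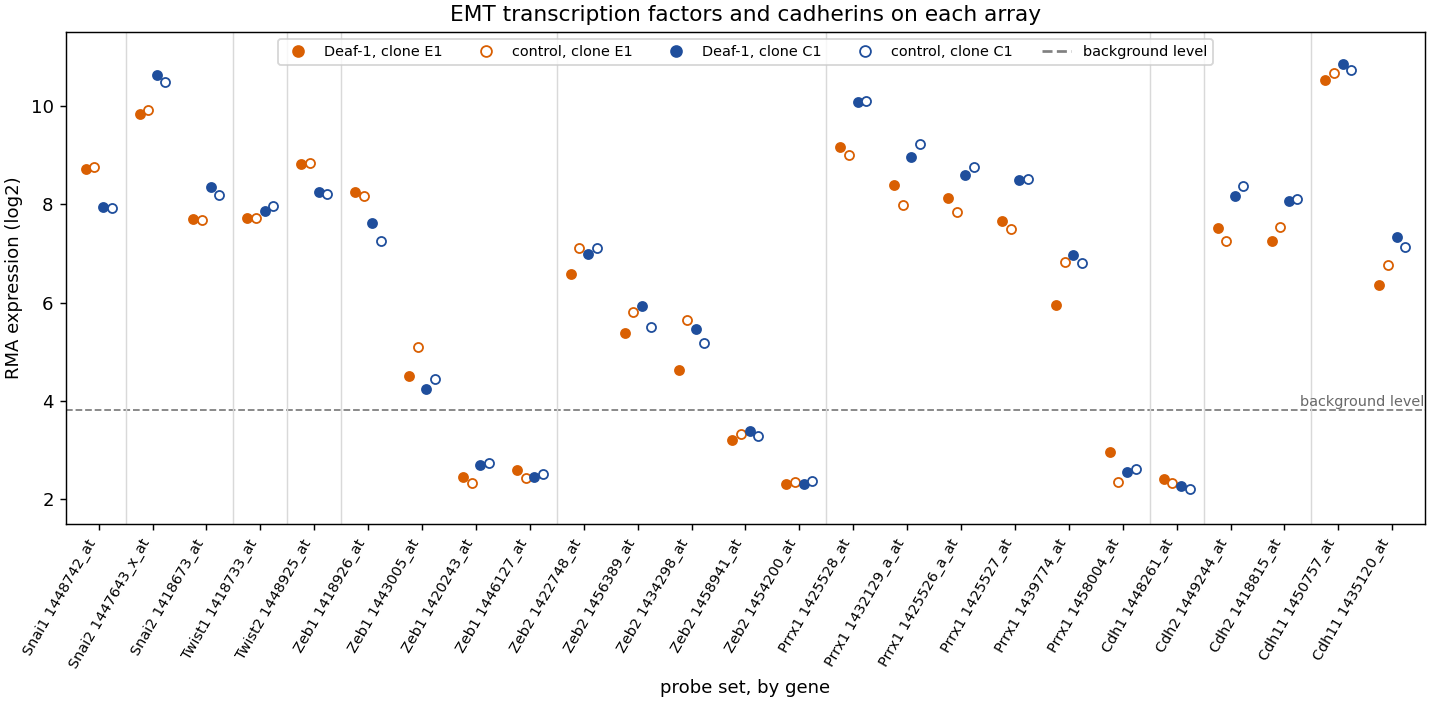
RMA expression (log2, vertical axis) of the 25 probe sets of the 10 genes (horizontal axis) on each array, with clone E1 in orange, clone C1 in blue, Deaf-1 filled and control open, and the background level of 3.83 dashed. The 4 values of Cdh1 lie between 2.22 and 2.42. Among leading probe sets the orange and blue points lie furthest apart at those of Snai1, Snai2, Twist2, Zeb1, Prrx1 and Cdh2.

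Cadherins of mesenchymal cells were detected in both clones. Cdh11 (1450757_at) read 10.53 with Deaf-1 and 10.68 with the control retrovirus in clone E1, and 10.85 with Deaf-1 and 10.72 with the control retrovirus in clone C1. Cdh2 (1449244_at) read 7.52 with Deaf-1 and 7.25 with the control retrovirus in clone E1, and 8.18 with Deaf-1 and 8.37 with the control retrovirus in clone C1. No array of Cdh2 or Cdh11 came near background, and in Cdh2 the clones did not overlap. The second probe set of each, 1418815_at for Cdh2 and 1435120_at for Cdh11, was also above background on every array.

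The label of mammary epithelial cells was checked against marker genes. Counts above background are to be read against the 64.5% of all genes whose leading probe set had a mean above it. Of 11 measured luminal markers 4 exceeded background by their mean, with 4.52 for Krt19, a keratin of simple epithelia, 7.48 for Cd24a, a surface protein of luminal cells, 5.12 for Esr1, the oestrogen receptor, and Epcam. Krt18, a luminal keratin, read 2.75 to 3.51 over the 4 arrays, and Gata3, Foxa1, Kit and Csn2 likewise lay below background on every array. Krt8, the partner of Krt18, was above it only in clone E1 (4.01 with Deaf-1 and 3.84 with the control retrovirus). This held at 1423691_x_at alone, a probe set of a kind that may match other transcripts. At 1420647_a_at (mean 2.80) and 1435989_x_at (mean 3.45) Krt8 was below background on every array. For Epcam the probe sets differed too. This epithelial adhesion molecule exceeded background at 1 probe set (mean 6.04, 1447899_x_at, of a kind that may match other transcripts) and not at the other (mean 3.58, 1416579_a_at). Of 10 basal markers 6 exceeded it. Krt5, a basal keratin (4.45 to 4.74), Trp63, the p63 factor of basal cells (3.87 to 4.43), Itga6, an integrin of basal cells, Cnn1 and Acta2, the smooth muscle actin that fibroblasts also make, did so on all 4 arrays and Mylk only in clone C1, while Krt14 and Krt17 did not on any array. Of 8 fibroblast markers all 8 exceeded it. The cells are called by their clone names below.

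Beyond the marker lists, 36 genes of the epithelial programme and 33 of the mesenchymal programme were read. Of the epithelial genes 19 had a mean above background, against 64.5% of all genes, and 13 reached it on no array. Esrp1, a splicing regulator of epithelia (mean 2.66), Ocln and Cldn7, which encode tight junction proteins (2.87 and 2.80), Dsp, the desmosomal plaque protein (2.56), and Ovol2, a repressor of Zeb1 (3.33), were among the 13. Grhl2, an activator of Cdh1, had a mean of 4.85. Of the mesenchymal genes all 33 had a mean above background, with 12.49 for Vim, the intermediate filament of mesenchymal cells, and 12.98 for Col1a2, a chain of type I collagen. Endothelial, leukocyte and adipocyte markers exceeded background by their mean for 2 of 7, 2 of 6 and 1 of 4 measured genes. Pecam1 and Cdh5 (endothelium), Ptprc (leukocytes) and Adipoq (adipocytes) were at background on every array. On all 4 arrays Tek (6.38 to 7.29) and Kdr of the endothelial list, and Csf1r (5.81 to 6.30) and Cd3e of the leukocyte list, were above it, as was Fabp4 of the adipocyte list in clone E1. Kdr read 4.20 on every array but that of Deaf-1 in clone C1 (4.24), and Cd3e read 4.32 on both C1 arrays. Krt5 (4.45 to 4.74), Trp63 (3.87 to 4.43) and Krt19 (mean 4.52) read in a similar range. Whether readings of this size reflect RNA of these genes was not tested.

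**Figure D2:**
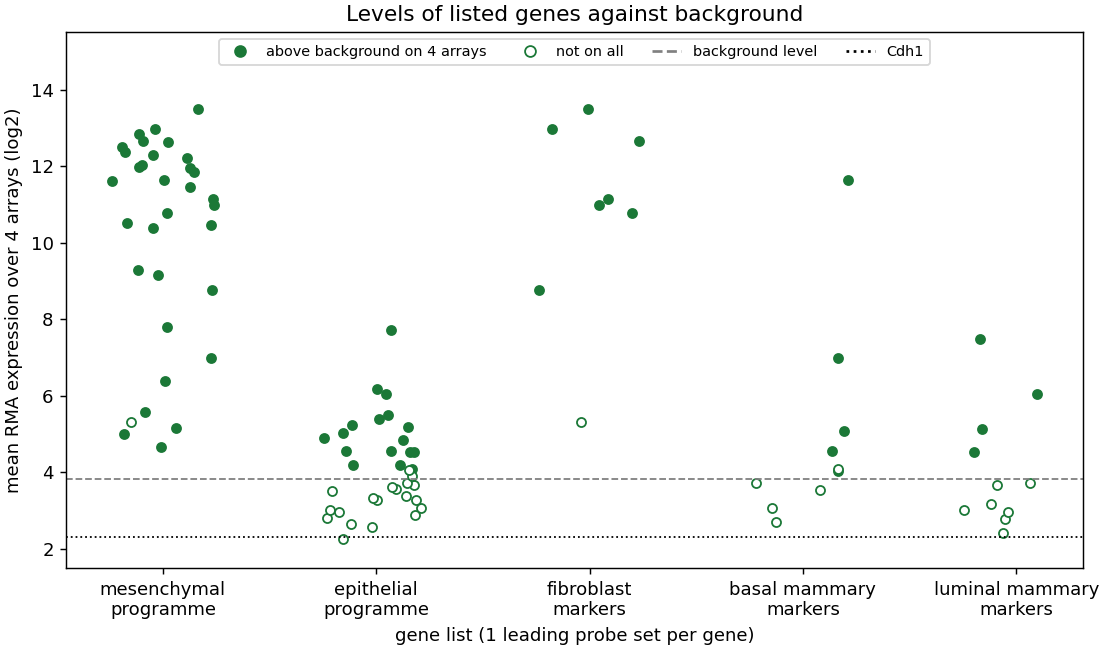
Mean RMA expression over the 4 arrays (log2, vertical axis) for the leading probe set of each gene in 5 lists (horizontal axis), filled where all arrays exceed the background level (dashed), with Cdh1 dotted at 2.32. All 33 mesenchymal genes have a mean above background, against 19 of 36 epithelial genes and 64.5% of all genes. Heights of different genes are not comparable with each other.

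Promoters of the factors were inspected for the E-boxes these proteins bind. Windows of 250 bases before to 50 after a start site were read from RefSeq (GRCm38.p6) for 5 of the 10 genes (Snai1, Twist1, Twist2, Zeb2 and Prrx1), 8 windows in all. Member windows on a chromosome that the search left out were not read. A gene absent here therefore need not lack a window in RefSeq. The letters CACCTG, or CAGGTG on the other strand, form the E-box preferred by Snail and Zeb proteins and are a special case of the general E-box CANNTG. Of these 8 windows only that of Snai1 held a match to either, a single CACCTG whose first base lies at -126 from the start site. Of 32851 promoter windows, with no chromosome left out, 20.2% held CACCTG on either strand and 72.3% held CANNTG. Snai1 and Twist2 are shown because they read higher in clone E1, and Prrx1 because it read lower there. Capitals mark the E-box. Snai1 lies at chr2:167537945-167538244 (plus strand), Twist2 at chr1:91801211-91801510 (plus strand) and Prrx1 at chr1:163313601-163313900 (minus strand).
Snai1: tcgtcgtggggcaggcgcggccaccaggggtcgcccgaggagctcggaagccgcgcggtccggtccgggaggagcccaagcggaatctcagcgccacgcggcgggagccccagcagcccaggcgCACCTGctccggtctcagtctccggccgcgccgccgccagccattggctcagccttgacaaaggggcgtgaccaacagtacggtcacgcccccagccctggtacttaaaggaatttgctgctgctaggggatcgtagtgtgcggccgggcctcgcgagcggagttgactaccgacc
Twist2: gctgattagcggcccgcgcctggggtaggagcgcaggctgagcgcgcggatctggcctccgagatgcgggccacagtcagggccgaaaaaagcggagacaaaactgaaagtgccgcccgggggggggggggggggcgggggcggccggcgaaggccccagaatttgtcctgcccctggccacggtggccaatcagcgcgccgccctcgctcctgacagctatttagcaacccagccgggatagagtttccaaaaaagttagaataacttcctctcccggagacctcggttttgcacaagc
Prrx1: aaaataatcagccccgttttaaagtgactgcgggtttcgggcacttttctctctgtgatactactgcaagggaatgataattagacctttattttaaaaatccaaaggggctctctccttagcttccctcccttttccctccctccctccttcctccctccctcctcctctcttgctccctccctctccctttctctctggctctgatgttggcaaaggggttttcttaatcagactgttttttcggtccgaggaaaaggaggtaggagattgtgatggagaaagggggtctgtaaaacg

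Over the 9 leading probe sets above background, the median absolute log2 difference was 0.68 between the clones and 0.042 between the retroviruses, against 0.25 and 0.092 over all probe sets above background. Clone E1 was compared with clone C1 by limma, with retrovirus held in the model. Snai1, Twist2 and Zeb1 read higher in clone E1, and Snai2, Prrx1 and Cdh2 lower, with fold differences of 1.52 to 2.02. At their leading probe sets the arrays of E1 and C1 did not overlap. No probe set of the members reached an adjusted p under 0.05 in limma (background 49 of 45037 probe sets, 0.109%). At an unadjusted p under 0.01, 6 of 25 passed (background 5.38%), all 6 among the 19 above background (background 10.1%). They were Snai1 and Zeb1 (1418926_at) on the higher side, and 2 probe sets of Prrx1 and both of Cdh2 on the lower. Arrays of the clones did not overlap at 17 of 25 probe sets (background 47.1%), or 15 of the 19 above background (background 60.3%). With a prior that follows signal level 6 leading probe sets passed the adjusted threshold, and with no retrovirus term 5. Each clone was measured on 2 arrays, so these p-values describe arrays of 1 clone each and not a population of clones.

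Within the Snail family Snai1 read higher in clone E1 and Snai2 lower, and neither reached the adjusted threshold. Snai1 (1448742_at), the repressor known to start an EMT, read 8.73 with Deaf-1 and 8.76 with the control retrovirus in clone E1, and 7.95 with Deaf-1 and 7.93 with the control retrovirus in clone C1. Its mean was 8.74 ± 0.023 in E1 and 7.94 ± 0.017 in C1 (SD, n = 2 arrays), 1.74-fold higher in E1 (log2 difference 0.80, standard error 0.14, limma adjusted p = 0.142). The arrays of each clone lay much closer to one another than the clones did. Snai1 is the gene whose promoter window holds the CACCTG printed above. Whether that motif bears on the difference between clones was not tested. Snai2 (1447643_x_at), also called Slug, read 9.84 with Deaf-1 and 9.92 with the control retrovirus in clone E1, and 10.64 with Deaf-1 and 10.48 with the control retrovirus in clone C1. The means of 9.88 ± 0.058 in E1 and 10.56 ± 0.11 in C1 (SD, n = 2 arrays) differed by -0.68 (standard error 0.15, limma adjusted p = 0.186), 1.61-fold lower in E1. This leading probe set of Snai2 is of a kind that may match other transcripts. The other Snai2 probe set (1418673_at) gave -0.59 (limma adjusted p = 0.211), and at both all E1 arrays lay below all C1 arrays.

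In the Twist family the difference was larger for Twist2 than for Twist1, though this contrast was not tested. Twist2 (1448925_at) read 8.83 with Deaf-1 and 8.84 with the control retrovirus in clone E1, and 8.24 with Deaf-1 and 8.21 with the control retrovirus in clone C1. It was 1.52-fold higher in E1 (log2 difference 0.61, standard error 0.14, limma adjusted p = 0.196). Twist1 (1418733_at) read 7.71 with Deaf-1 and 7.72 with the control retrovirus in clone E1, and 7.87 with Deaf-1 and 7.97 with the control retrovirus in clone C1. Its difference of -0.21 had a 95% interval from limma of -0.60 to 0.19, although the arrays of the clones did not overlap.

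Zeb1 and Zeb2, which act on many of the same promoters, did not show the same pattern. Zeb1 (1418926_at) read 8.25 with Deaf-1 and 8.17 with the control retrovirus in clone E1, and 7.61 with Deaf-1 and 7.27 with the control retrovirus in clone C1. It was 1.71-fold higher in E1 (log2 difference 0.77, standard error 0.16, limma adjusted p = 0.162), and a dimmer probe set (1443005_at) gave 0.45 with no overlap of the clones. Zeb2 (1422748_at) read 6.59 with Deaf-1 and 7.12 with the control retrovirus in clone E1, and 6.99 with Deaf-1 and 7.11 with the control retrovirus in clone C1. Here the clones overlapped, as they did at all 5 Zeb2 probe sets, and the difference of -0.20 had an interval of -0.67 to 0.27 from limma. Whether Zeb1 and Zeb2 differed in their response to clone was not tested.

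Prrx1 had the largest difference between clones of the 10 leading probe sets. At 1425528_at it read 9.16 with Deaf-1 and 9.01 with the control retrovirus in clone E1, and 10.09 with Deaf-1 and 10.11 with the control retrovirus in clone C1. The mean was 9.09 ± 0.10 in E1 and 10.10 ± 0.014 in C1 (SD, n = 2 arrays), 2.02-fold lower in E1 (log2 difference -1.01, standard error 0.15, limma adjusted p = 0.120). Further probe sets gave -0.93 (1425527_at), -0.91 (1432129_a_at) and -0.69 (1425526_a_at), each with no overlap of the clones. At 1439774_at the clones overlapped and the difference was -0.49. There the control arrays read 6.83 in E1 and 6.80 in C1 while the Deaf-1 arrays read 5.95 in E1 and 6.97 in C1. Prrx2, its paralog, was outside the member list and gave -1.12 (limma adjusted p = 0.133).

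Of the cadherins Cdh2 was lower in clone E1 at both of its probe sets. The means at 1449244_at were 7.38 ± 0.20 in E1 and 8.27 ± 0.14 in C1 (SD, n = 2 arrays), 1.85-fold lower in E1 (log2 difference -0.89, standard error 0.18, limma adjusted p = 0.165). At 1418815_at the difference was -0.69 (limma adjusted p = 0.183). The bright Cdh11 probe set (1450757_at) differed by -0.18, with an interval of -0.61 to 0.25 from limma, and the dimmer one (1435120_at) by -0.67 (limma adjusted p = 0.278). E1 arrays lay below C1 arrays at both. Cdh1 differed by 0.13 between values that were all below background.

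**Figure D3:**
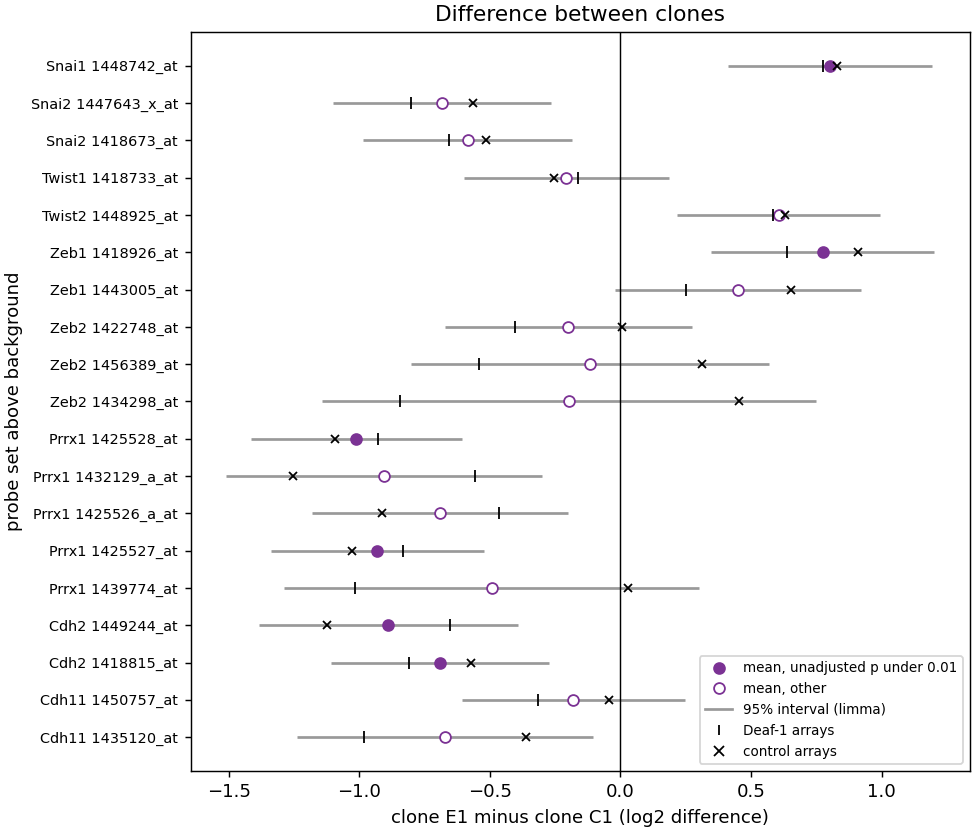
Difference between clone E1 and clone C1 (log2, horizontal axis) at the 19 member probe sets above background (vertical axis), with the mean as a circle, filled at an unadjusted p under 0.01, the 95% interval of limma as a grey line, and the differences among Deaf-1 arrays (bar) and among control arrays (cross). The means of Snai1, Twist2 and both Zeb1 probe sets lie right of 0, and those of all other probe sets shown left of it.

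For the lists of related genes, counts are to be read against the 5.38% of all probe sets, or 10.1% of those above background, that passed at an unadjusted p under 0.01. Of 32 other EMT regulators measured, 4 were higher and 2 lower in E1 at an unadjusted p under 0.01, and none at an adjusted p under 0.05 in limma. Their median difference was 0.029, against 0.0045 over all probe sets and -0.19 over the 10 leading probe sets of the members. Those with the largest moderated t were Gsc, a homeobox factor (above background only in E1, and at least 2.10-fold higher there with C1 set to the background level), Sox4, an HMG-box factor (0.99), and Id1 (0.95) and Id4 (-1.05), inhibitors of helix-loop-helix factors. The remaining calls were Tead2, a partner of Yap (0.83), and Prrx2. Mesenchymal genes gave 5 higher and 4 lower of 33 (median -0.13), with Cnn1, a smooth muscle calponin, at -1.51, Lum, a matrix proteoglycan, at -2.82 (below background on 1 of the E1 arrays), Fstl1, a secreted glycoprotein, at -0.997 and Postn, a matricellular protein, at 0.98. The others were S100a4 (-1.01), Pdgfrb (0.83), Lox (0.87), Mmp14 (0.80) and Fap (0.86). Epithelial genes gave 1 higher and 2 lower of 36 (median 0.12), and of those above background F11r, a tight junction adhesion molecule, had the largest t (-0.84). The other calls, Krt7 and Mpzl2, had means below background over the 4 arrays. Krt7 was above it only in E1, and at least 1.34-fold higher there with C1 set to the background level. Mpzl2 was above it only in C1, and at least 1.23-fold higher there with E1 set to that level. Among 23 other cadherins and catenins, 1 was lower and none higher (median 0.076). It was Cdh3, the P-cadherin of basal cells (-0.97, limma adjusted p = 0.120). Ctnnb1 and Ctnna1, the catenins that tie cadherins to actin, differed by 0.071 and 0.17.

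Markers of other cell types also moved with the clones. Fabp4, an adipocyte fatty acid carrier, read 10.56 with Deaf-1 and 10.59 with the control retrovirus in clone E1, and 3.77 with Deaf-1 and 2.57 with the control retrovirus in clone C1, where both arrays lay below background. It was at least 107-fold higher in E1, with C1 set to the background level (limma adjusted p = 0.0322 on the measured values). The other 3 measured adipocyte markers were at background on every array. At an unadjusted p under 0.01 in limma, 2 luminal markers (Esr1 and Cd24a) and 2 basal markers (Cnn1 and Mylk) were lower in E1 and none was higher, while of the fibroblast markers Pdgfrb was higher and Lum lower. Summed on the linear scale, the luminal list gave 301 to 305 in E1 and 439 to 476 in C1, a sum in which Cd24a is the largest single part, and the median log2 difference of its genes was -0.018. The basal list gave 3016 to 3139 in E1 and 3803 to 4003 in C1, most of it Acta2, while the median difference was in the opposite direction (0.13). The fibroblast list gave 33064 to 35129 in E1 and 30737 to 31743 in C1 (median -0.0037). Of endothelial and leukocyte markers none passed. The part of these markers in the differences of Snai1, Zeb1, Prrx1 and Cdh2 was not tested.

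The comparison of the Deaf-1 with the control retrovirus asked whether restoring Deaf-1 alters expression in cells that lack it. None of the 25 probe sets of the members passed at an unadjusted p under 0.01 (background 0.0111%, 5 of 45037 probe sets) or under 0.05 in limma, and the adjusted p was 1 for each. With clone as a block none passed at p under 0.01 either. The median difference over the 10 leading probe sets was 0.023, against -0.0043 over all probe sets tested. At the leading probe sets Zeb1 and Cdh1 read higher with Deaf-1 in both clones, and Twist1 and Zeb2 lower. The other 6 moved in opposite directions, and the values of Cdh1 were below background. Further probe sets did not always follow, as Zeb1 at 1443005_at read lower in both clones (-0.60 in E1 and -0.20 in C1). Snai2 at 1418673_at read higher with Deaf-1 in both clones, and Cdh2 at 1418815_at lower in both. For comparison, the sign was shared by the clones at 39.4% of all probe sets.

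Without the block the largest moderated t of the members belonged to Zeb2 (1422748_at), and with it to Zeb1 (1443005_at). At 1422748_at its mean was 6.79 ± 0.29 in Deaf-1 cells and 7.12 ± 0.0034 in control cells (SD, n = 2 clones), a log2 fold change of -0.33 (standard error 0.19) with a 95% interval of -0.84 to 0.18 from limma. The decrease was -0.53 in clone E1 and -0.13 in clone C1. At 1456389_at Zeb2 read 5.39 with Deaf-1 and 5.82 with the control retrovirus in clone E1, and 5.93 with Deaf-1 and 5.51 with the control retrovirus in clone C1. The clones therefore moved in opposite directions there, as they did at 1434298_at, where the difference was -1.02 in E1 and 0.28 in C1.

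Snail and Twist genes gave log2 fold changes near 0. Snai1 averaged 8.34 ± 0.55 in Deaf-1 cells and 8.34 ± 0.59 in control cells (SD, n = 2 clones), a log2 fold change of -0.0038, and the SD is that of the clones. With clone as a block the interval of limma was -0.39 to 0.39. Twist2 had 0.0098 (-0.38 to 0.40 with the block), Snai2 0.036 (-0.38 to 0.45) and Twist1 -0.048 (-0.44 to 0.34). Zeb1 at its leading probe set had 0.21 (-0.22 to 0.64 with the block), from changes of 0.077 in E1 and 0.35 in C1, while at 1443005_at it had -0.40 (-0.87 to 0.067).

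The leading probe sets of Prrx1, Cdh2 and Cdh11 gave log2 fold changes near 0 from changes of opposite sign. Prrx1 (1425528_at) had 0.064, with 0.15 in E1 and -0.019 in C1, and an interval of -0.34 to 0.47 with clone as a block. Cdh2 (1449244_at) had 0.042, with 0.28 in E1 and -0.19 in C1, whereas its other probe set (1418815_at) read lower with Deaf-1 in both clones (-0.28 in E1 and -0.041 in C1). Cdh11 (1450757_at) had -0.0090, with -0.14 in E1 and 0.13 in C1. Cdh1 had 0.073 at values below background, which cannot show a change. With the block, the 95% interval of limma lay within 1 log2 unit of 0 at 17 of the 19 probe sets above background, and without it at 7.

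**Figure D4:**
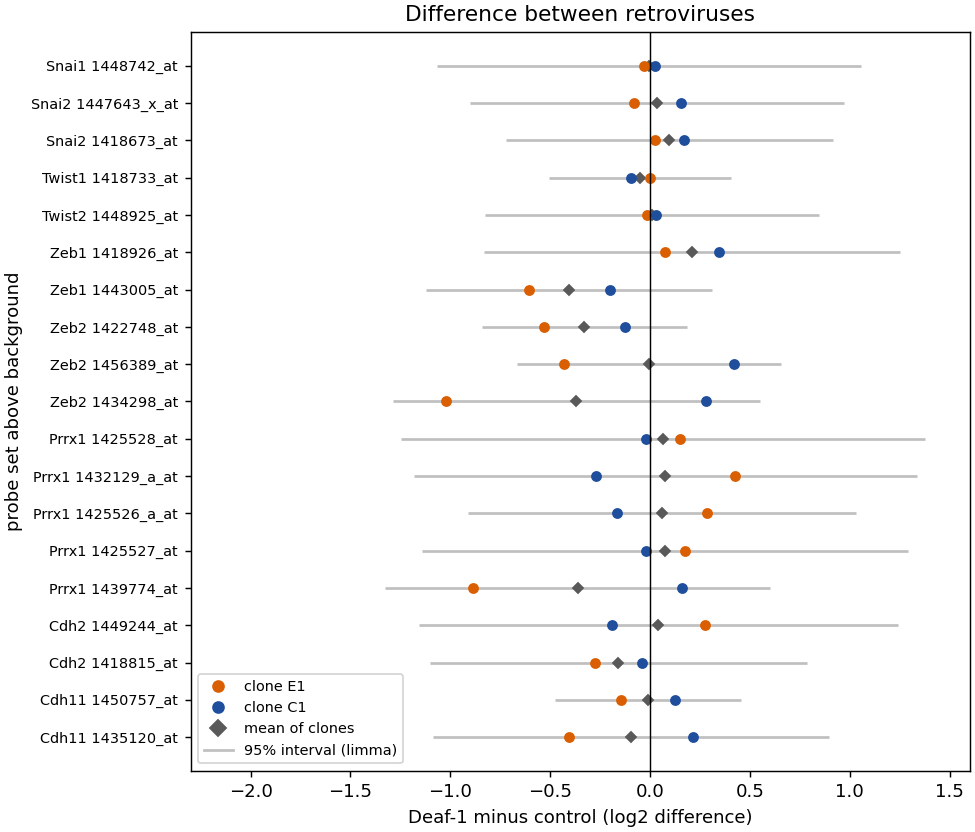
Difference between the Deaf-1 and the control retrovirus (log2, horizontal axis) at the 19 member probe sets above background (vertical axis) in clone E1 (orange) and clone C1 (blue), with their mean (diamond) and the 95% interval of limma without the block (grey). All 19 intervals include 0, and the orange points of Zeb2 and of 1439774_at (Prrx1) lie at -0.43 to -1.02.

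In clone E1, 6 of the 19 member probe sets above background read more than 0.4 lower with Deaf-1. They were 3 of Zeb2, 1443005_at of Zeb1 (-0.60), 1439774_at of Prrx1 (-0.89) and 1435120_at of Cdh11 (-0.41). In clone C1 there were 0, although 1443005_at and the leading probe set of Zeb2 also read lower there (-0.20 and -0.13). Over all probe sets above background, 11.9% read that much lower in E1 and 4.08% in C1. More than 0.4 higher with Deaf-1 were 1 member probe set in E1 (1432129_a_at of Prrx1, 0.43) and 1 in C1 (1456389_at of Zeb2, 0.42). The shares over all probe sets above background were 6.32% in E1 and 6.91% in C1. The leading probe sets of Zeb1, Prrx1 and Cdh11 changed by 0.077, 0.15 and -0.14 in E1. Each clone has 1 array per retrovirus, so the difference between clones in these changes could not be tested.

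Related genes gave no call between the retroviruses. Of the 32 other EMT regulators, 36 epithelial genes, 33 mesenchymal genes and 23 other cadherins and catenins, none passed at an unadjusted p under 0.01 in limma, with or without the block, and likewise no marker gene of the 6 cell types. The medians were -0.011, 0.030, 0.0015 and -0.018. Among genes with a mean above background, the regulators with the largest moderated t were Foxc1, a forkhead factor of mesenchyme (0.17), and Snai3 (0.18). For the epithelial genes they were Grhl2 (0.25) and Muc1, an apical mucin (0.25). For the mesenchymal genes they were Itgb3, an integrin subunit (-0.22), and Pdgfra, a receptor of mesenchymal cells (0.18). For the cadherins and catenins they were Arvcf, a catenin that binds cadherins (0.35), and Cdh20 (0.22). Arvcf had a mean of 3.84, close to the background level, and its control arrays (3.63 in E1 and 3.70 in C1) lay below it.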

How the data were processed

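RNA of 4 samples was hybridized to 1 Affymetrix mouse array each. The values deposited by the authors are log2 expression per probe set, made with RMA (background correction, quantile normalization and probe summary). The submitters' processing notes name RMA and limma, and their versions were not stated there. The values ran from 1.75 to 13.63, and array medians from 3.77 to 3.87.

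Of 45101 probe sets, 64 control probe sets were left out and none for low signal. Symbols came from the platform annotation, in which 34945 probe sets had 1 symbol, 932 several and 9160 none, and all 25 member probe sets matched RefSeq by gene identifier with 0 symbols changed. Groups followed the sample titles. Deaf-1 was compared with control by limma 3.58.1 (lmFit and eBayes, R 4.3.3) across all 45037 probe sets, two-sided, with Benjamini-Hochberg adjustment, clones as replicates and a threshold of an unadjusted p under 0.01, as in the study. The study's own list at that threshold is longer and includes genes lower with Deaf-1, whereas the fit here called 5 probe sets, all higher. Same-numbered samples are the same clone. The correlation of their deviations from the group means was 0.54, so clone was also fitted as a block. Clone E1 was compared with clone C1 with retrovirus as a term, at an adjusted p under 0.05. Residual degrees of freedom were 2 without and 1 with the second term, and the p-values measure only the spread between these 4 arrays.

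The members and the gene lists were chosen with earlier results of these data known. Named were all member probe sets and, of each other list, up to 4 genes with the largest absolute moderated t between clones and up to 2 between retroviruses, among leading probe sets above background. Other genes named from the lists (further calls, Ctnnb1, Ctnna1 and those given for their level) were chosen after their values were seen. Of 191 list entries 11 had no probe set with that symbol alone and were not analysed here. Motifs were searched on both strands of RefSeq promoter windows. The scripts were tested on simulated data. Alternatives were a background filter, cyclic loess, median centring or a further quantile normalization, a robust or trend prior, the block, each array left out, the mean over the probe sets of a gene, and other background percentiles.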

Additional observations from a re-analysis of the deposited data

Results flagged for a closer look

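For 6 of the 9 leading probe sets above background, the array pair of clone E1 and that of clone C1 moved in opposite directions with Deaf-1, which is what drew attention to them. The change in E1 minus the change in C1 was 0.47 for Cdh2 (1449244_at), 0.17 for Prrx1 (1425528_at), -0.057 for Snai1 (1448742_at), -0.24 for Snai2 (1447643_x_at), -0.045 for Twist2 (1448925_at) and -0.27 for Cdh11 (1450757_at). With 1 array per clone and retrovirus the difference was not tested. Of all probe sets above background, 63.6% did not share a sign in the clones, and the 6 of 9 lie near that share.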

How the results depend on the processing

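No leading probe set of the members passed between the retroviruses under any alternative run, and 9 of 10 stayed above background with the level at the 90th (3.56) or 99th (3.98) percentile. Over all probe sets the 5 calls (5 higher, 0 lower) became 2 with the background filter, 25 with a trend prior (16 higher, 9 lower) and 11 with clone as a replicate block (8 higher, 3 lower). Leaving out 1 array gave 47 (Deaf-1, C1), 15 (Deaf-1, E1), 3 (control, C1) or 2 calls (control, E1). With an array missing, the groups hold the clones in unequal numbers, and the fit assumes that the lone array of a group varies like the others. The sign of the change with Deaf-1 turned for Snai1 (0.011 after quantile normalization, 0.034 after cyclic loess), Cdh11 (0.017 and 0.028 after the same), Twist2 (-0.011 after median centring) and, as means over the probe sets of a gene, Zeb1 (-0.096), Prrx1 (-0.017) and Cdh2 (-0.059). With 1 array left out the change with Deaf-1 ran from -0.42 to 0.41 for Snai1, -0.37 to 0.44 for Snai2, -0.17 to 0.078 for Twist1, -0.30 to 0.32 for Twist2, -0.24 to 0.67 for Zeb1, -0.53 to -0.13 for Zeb2, -0.48 to 0.61 for Prrx1, 0.0012 to 0.14 for Cdh1, -0.52 to 0.60 for Cdh2 and -0.17 to 0.15 for Cdh11.

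Between the clones the count of 49 (31 higher, 18 lower in E1) was 414 (222 and 192) with the background filter, 1286 (683 and 603) after quantile normalization, 1591 (723 and 868) after median centring, 936 (524 and 412) after cyclic loess, 1696 (860 and 836) with a trend prior and 2306 (1118 and 1188) with no replicate block for the retrovirus, and it was 0 without any 1 array (1514 to 2980 at an unadjusted p under 0.01 in limma). Of the leading probe sets of the members, in place of 0, calls numbered 1 (Prrx1) after quantile normalization, 2 (Prrx1 and Cdh2) after median centring, 1 (Prrx1) after cyclic loess, 6 (Snai1, Snai2, Twist2, Zeb1, Prrx1 and Cdh2) with a trend prior, 5 (the same without Zeb1) with no replicate block and 0 without any 1 array. The cause was not tested. Fits with 1 array left out also had no retrovirus term, so they differ from the main fit in the model as well as in the arrays. The direction between clones turned only for Zeb2, which ran from -0.47 to 0.067 with 1 array left out. The number of arrays limits the precision.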

Other observations

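Likeness to a member was measured as the Euclidean distance between log2 values centred on the mean of the 4 arrays, over genes above background. The pattern of Snai2 (1447643_x_at), the factor picked by the mean of its probe set, which does not rank genes by level, was nearest to those of Marf1 (distance 0.019), Il1rap (0.019), Hsd17b11 (0.026), Dyrk1a (0.035) and Fbxo30 (0.036). This probe set of Snai2 is of a kind that may match other transcripts. No likeness is given for Cdh1, which lay below background. With 4 arrays of 2 clones such distances describe these arrays only.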
